A study of Mus musculus with 17 samples.

Results

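*Ighv11-2*, *Igkv14-126*, *Ighv12-3* and *Igkv4-91* are 4 variable segments of mouse antibody genes, and together they make up the 2 heavy and light chain pairs best known from B-1a cells that bind phosphatidylcholine. They are 4 of the 55401 genes measured in perigonadal white adipose tissue (pWAT), 2 of them among the 113 heavy chain variable segments and 2 among the 103 light chain ones that GENCODE lists as functional. The members were chosen by this known pairing with earlier results of the data in view. *Ighv11-2* and *Igkv14-126* had also been put forward for their difference between the males, so their male values chose them and are described without a test. pWAT is a visceral fat depot that lies next to the gonads, and it was collected at 16 weeks of age from C57BL/6J mice on standard chow. The U9-KO mice were homozygous for a germline deletion of all exons of the long non-coding RNA gene *U90926*, and the WT mice carried none. RNA-seq was done with 1 library per mouse, for 5 WT females, 5 U9-KO females, 3 WT males and 4 U9-KO males. The labels name no treatment of any group. The paper states that mice of both genotypes went through a phenotyping pipeline, with food withdrawal, a glucose injection and blood sampling, at the clinic that collected the fat. The deletion was present in every cell of the U9-KO mice, so effects in fat, in B cells and elsewhere in the body cannot be told apart.

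An antibody or B cell receptor pairs a heavy chain with a light chain, and each B cell joins 1 variable segment per chain to shorter segments when it develops. B-1 cells are a self-renewing kind of B cell that is rich in the peritoneal and pleural cavities and in the lymphoid clusters of visceral fat, and they make much of the natural IgM present without infection. A recurrent part of the B-1a repertoire binds phosphatidylcholine, a membrane lipid exposed on aged red cells and on some bacteria, and it does so with *Ighv11-2* paired to *Igkv14-126* or with *Ighv12-3* paired to *Igkv4-91*. In RNA from whole tissue, the count of a variable segment depends on how many cells use it and on how much antibody RNA each makes, and fewer cells of a type and less RNA per cell cannot be told apart.

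The germline sequences of the 4 segments are shown because a read is assigned to a segment by these bases. They are the last bases of the variable exon in the GENCODE M21 transcripts on GRCm38, 5′ to 3′, and the capitals mark the stretch from the codon of the conserved cysteine, where the third complementarity-determining region begins, to the end of the germline segment.
*Ighv11-2*: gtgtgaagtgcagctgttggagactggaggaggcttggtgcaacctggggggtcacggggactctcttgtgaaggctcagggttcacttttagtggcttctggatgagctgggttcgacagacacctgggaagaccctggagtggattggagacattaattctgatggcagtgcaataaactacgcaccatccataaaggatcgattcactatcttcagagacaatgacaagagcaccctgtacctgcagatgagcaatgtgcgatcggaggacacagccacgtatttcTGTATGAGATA
*Igkv14-126*: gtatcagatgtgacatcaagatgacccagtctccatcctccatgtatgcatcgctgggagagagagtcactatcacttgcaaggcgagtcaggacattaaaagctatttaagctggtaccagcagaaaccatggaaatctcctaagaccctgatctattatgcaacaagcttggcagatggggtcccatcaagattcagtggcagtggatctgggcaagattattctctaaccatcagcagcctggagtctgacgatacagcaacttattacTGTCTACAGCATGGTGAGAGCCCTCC
*Ighv12-3*: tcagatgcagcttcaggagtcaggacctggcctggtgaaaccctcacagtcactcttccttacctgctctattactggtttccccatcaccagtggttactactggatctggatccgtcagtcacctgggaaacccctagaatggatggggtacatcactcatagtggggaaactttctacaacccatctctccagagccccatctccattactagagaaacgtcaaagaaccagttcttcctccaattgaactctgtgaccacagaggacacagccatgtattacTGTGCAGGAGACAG
*Igkv4-91*: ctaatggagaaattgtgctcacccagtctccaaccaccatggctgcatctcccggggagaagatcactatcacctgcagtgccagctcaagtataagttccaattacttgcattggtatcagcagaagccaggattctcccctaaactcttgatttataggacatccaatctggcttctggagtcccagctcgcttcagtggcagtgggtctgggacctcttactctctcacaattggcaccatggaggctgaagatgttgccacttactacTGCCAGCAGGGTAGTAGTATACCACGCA
The heavy segments lie on the minus strand of chromosome 12, at chr12:114048241-114048540 for the stretch shown of *Ighv11-2* (ENSMUSG00000096108) and chr12:114366521-114366820 for that of *Ighv12-3* (ENSMUSG00000076676), with 317.708 kb between the genes. The light segments lie on chromosome 6, at chr6:67896345-67896642 on the plus strand for *Igkv14-126* (ENSMUSG00000094345) and chr6:68768555-68768854 on the minus strand for *Igkv4-91* (ENSMUSG00000076532), with 871.912 kb between the genes. Each gene has 2 exons, a leader exon and the variable exon. The germline part of the third complementarity-determining region differs in length, with 11 bases in *Ighv11-2* and 14 in *Ighv12-3* from the cysteine codon onward, against 26 in *Igkv14-126* and 28 in *Igkv4-91*.
The members are not copies of each other. The variable exons of the 2 heavy segments were 59.4% identical and those of the 2 light segments 64.2% identical. Only *Ighv11-2* has a near-identical copy, since *Ighv11-1* shares 98.7% of its bases and an unbroken run of 162 of them. Reads could be lost or split between these segments, and the highest *Ighv11-1* value, in WT male 2, was 20 normalized counts. The closest segments to the other members were *Igkv14-111* for *Igkv14-126* (90.9%), *Igkv4-79* for *Igkv4-91* (86.4%) and *Ighv3-6* for *Ighv12-3* (77.4%). RefSeq lists *Igkv14-126* as a pseudogene and GENCODE as functional.

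Values are normalized counts, that is reads per gene scaled by the library's size factor and rounded by the authors. From the whole numbers that this rounding skips or repeats, the libraries were estimated to hold 19700000 to 27600000 reads assigned to genes. *U90926* had 0 or 1 normalized count in WT mice and 0 in every U9-KO mouse, which is too few to check the genotype labels. The 6 adipocyte genes, such as *Adipoq*, summed to 143313 or more in every mouse. All 11 B cell marker genes (*Cd79a*, *Ms4a1* and others) were detected in every group, with sums of 730 to 1963 in WT females, 493 to 2335 in U9-KO females, 582 to 1315 in WT males and 437 to 509 in U9-KO males. A list of 7 genes high in B-1 cells, such as *Cd5* and *Bhlhe41*, summed to 497 to 879 across the 17 mice, but other cells of fat use these genes as well. U9-KO female 3 stood apart with the lowest B cell marker sum of the females and the highest *Jchain* count of all mice, 3471, so the differences of the members and of the B cell, plasma cell, T cell and segment lists in females are also given without it.

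In females, the first pair was present in every mouse and did not pass the test between genotypes. *Ighv11-2*, the heavy segment, had 24, 42, 46, 10 and 82 normalized counts in WT females 1 to 5 and 19, 113, 395, 26 and 22 in U9-KO females 1 to 5. *Igkv14-126*, its light partner, had 27, 83, 37, 19 and 126 in WT and 22, 111, 532, 36 and 13 in U9-KO females. The groups overlapped for both segments, and U9-KO female 3 was the highest female for both. That mouse carried 68.7% of the summed *Ighv11-2* count and 74.5% of the summed *Igkv14-126* count of the U9-KO females. The group medians were close, at 42 and 26 for *Ighv11-2* and 37 and 36 for *Igkv14-126*, and both medians were lower in U9-KO than in WT while both means were higher.

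The second pair was far less abundant in females. *Ighv12-3*, the heavy segment, had 1, 6, 0, 2 and 1 normalized counts in WT and 2, 2, 17, 2 and 5 in U9-KO females. *Igkv4-91*, the light segment, had 4, 9, 11, 6 and 5 in WT and 22, 25, 124, 3 and 11 in U9-KO females. Again the groups overlapped and U9-KO female 3 was highest. Apart from that mouse, *Ighv12-3* stayed at 6 or fewer, which is close to the limit of what these libraries can measure.

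limma's test on log2(normalized count + 1) gave log2 differences, U9-KO minus WT, of 0.72 (SE 0.82) for *Ighv11-2*, 0.33 (SE 0.90) for *Igkv14-126*, 1.02 (SE 0.64) for *Ighv12-3* and 1.43 (SE 0.74) for *Igkv4-91* (n = 5 each, adjusted p = 1 for each in limma). The 95% intervals ran from -1.08 to 2.53, from -1.63 to 2.29, from -0.37 to 2.42 and from -0.19 to 3.05, so a 4-fold higher level in U9-KO females lay inside all 4 intervals and a 4-fold lower one outside all 4. Thus 0 of the 4 members passed, as did 0 of the 24825 genes tested (0%), with 553 genes at an unadjusted p under 0.05. No member was among the 59 genes (0.238%) whose groups did not overlap in females. Without U9-KO female 3 the differences were 0.02, -0.46, 0.56 and 0.78 in the same order, so the direction for *Igkv14-126* turned and *Ighv11-2* was nearly level. A fold change on this scale understates that of low counts such as those of *Ighv12-3*.

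**Figure D1:**
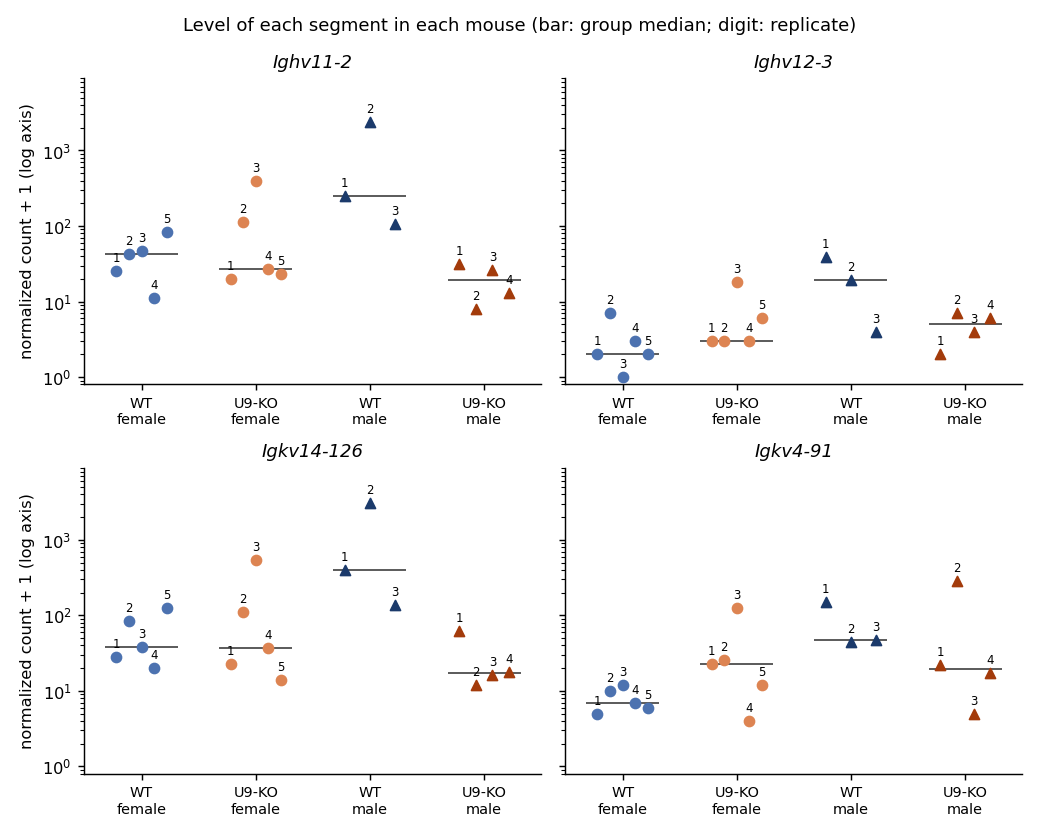
Normalized count + 1 of the 4 segments (log axis) in each mouse by genotype and sex, with 1 point per mouse, its replicate number above it and a bar at the group median. The 3 WT males sit at 106 to 2397 for *Ighv11-2*, above the 4 U9-KO males at 7 to 30, while the female groups overlap for all 4 segments.

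In males, the values that chose the first pair were far apart. *Ighv11-2* had 245, 2397 and 106 normalized counts in WT males 1 to 3 and 30, 7, 25 and 12 in U9-KO males 1 to 4. *Igkv14-126* had 393, 3096 and 137 in WT and 61, 11, 15 and 17 in U9-KO males. The lowest WT male was above the highest U9-KO male for both segments, but WT male 2 alone held 87.2% of the summed *Ighv11-2* count and 85.4% of the summed *Igkv14-126* count of the WT males. Means were 916 ± 1284 and 18.5 ± 10.8 for *Ighv11-2* and 1209 ± 1639 and 26 ± 23.5 for *Igkv14-126* (SD, n = 3 WT and 4 U9-KO). The WT to U9-KO ratios of means were 49.5 and 46.5, and the log2 differences, U9-KO minus WT, were -4.55 and -4.68. Without WT male 2 these differences were -3.25 and -3.44, still lower in U9-KO males but much smaller as folds. With each male left out in turn they ran from -5.50 to -3.25 and from -5.68 to -3.44. WT groups above U9-KO groups with no overlap were found for 833 of the 21930 genes of the male comparison (3.80%), and nothing is read from this count, since the male comparison chose the pair.

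The second pair had not been put forward for its male values, and it overlapped between male genotypes. *Ighv12-3* had 38, 18 and 3 normalized counts in WT and 1, 6, 3 and 5 in U9-KO males. *Igkv4-91* had 148, 44 and 46 in WT and 21, 287, 4 and 16 in U9-KO males. The highest *Igkv4-91* count of all 17 mice was that of U9-KO male 2, while WT male 1 was the highest mouse for *Ighv12-3*. The log2 differences were -1.75 for *Ighv12-3* and -1.33 for *Igkv4-91*, and for the latter the ratio of WT to U9-KO means was 0.967, so mean and log2 difference point in opposite directions. With each male left out in turn, the log2 difference ran from -2.67 to -1.03 for *Ighv12-3* and from -2.47, without U9-KO male 2, to -0.52 for *Igkv4-91*.

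Ordered by group median, *Ighv11-2* ran from WT males (245) through WT females (42) and U9-KO females (26) to U9-KO males (18.5), and *Igkv14-126* from WT males (393) through WT females (37) and U9-KO females (36) to U9-KO males (16). For both segments the range of the WT males lay above that of the WT females and overlapped that of the U9-KO females, which held U9-KO female 3. The ranges of the other 3 groups overlapped in each neighbouring pair. For *Ighv12-3* the order of medians was WT males (18), U9-KO males (4), U9-KO females (2) and WT females (1), and for *Igkv4-91* it was WT males (46), U9-KO females (22), U9-KO males (18.5) and WT females (6), and all neighbouring ranges overlapped for these 2 segments. Scaling seems to have been done in each sex on its own, so only large differences between the sexes can be read.

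Counts can be high because a mouse has more antibody RNA of every kind, so each segment was also expressed as a share of all variable-segment counts of its chain in the same mouse. *Ighv11-2* made up 10.7%, 74.4% and 17.6% of the heavy chain counts of WT males 1 to 3 and 8.65%, 0.661%, 2.84% and 0.741% of those of U9-KO males 1 to 4. *Igkv14-126* made up 9.96%, 65.3% and 16.4% of the light chain counts in WT and 9.01%, 0.547%, 1.14% and 0.771% in U9-KO males. In each of the 3 WT males the pair was first in rank, *Ighv11-2* of 113 heavy and *Igkv14-126* of 103 light segments, and in no other mouse did both lead. From the estimated reads, the 95% Wilson intervals of the *Ighv11-2* shares were 73.0% to 75.7% in WT male 2, 9.52% to 12.1% in WT male 1 and 14.7% to 20.9% in WT male 3, and they cover counting error only. The share of U9-KO male 1, 8.65%, lay below the interval of WT male 1, but its own interval (6.18% to 11.9%) overlapped that one. On the log2 scale the shares differed by -3.60 and -3.86, U9-KO minus WT, and without WT male 2 by -2.79 and -3.07. Without WT male 1 they were -4.19 and -4.43, without U9-KO male 1 -4.32 and -4.72, and as shares of all antibody genes with the constant regions -4.38 and -4.52.
Summed within each chain, the other segments showed no such gap. Segment by segment, members included, most were nevertheless lower in U9-KO males, 50 of 69 heavy and 52 of 69 light. Their median log2 differences were -1.0 and -1.20. A sum can also be led by a single segment, as by *Ighv2-2* with 953 counts in U9-KO male 4. Heavy chain counts other than *Ighv11-2* summed to 2038, 824 and 495 in WT and 317, 1052, 854 and 1607 in U9-KO males, and light chain counts other than *Igkv14-126* to 3553, 1644 and 697 in WT and 616, 2000, 1303 and 2189 in U9-KO males. These sums overlapped between the genotypes. In WT male 2, the mouse with the most *Ighv11-2*, the heavy chain sum of 824 was among the lower values of the males and the light chain sum of 1644 was in the middle of them.

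In females the shares leaned the other way from the levels. *Ighv11-2* was 7.87%, 5.36%, 9.06%, 4.48% and 12.9% of heavy chain counts in WT and 0.327%, 6.84%, 6.20%, 2.16% and 1.94% in U9-KO females. *Igkv14-126* was 6.52%, 6.17%, 3.90%, 5.16% and 13.9% of light chain counts in WT and 0.221%, 4.64%, 5.89%, 2.03% and 0.810% in U9-KO females. The groups overlapped, and the log2 differences of the shares, U9-KO minus WT, were -1.73 and -2.02, whereas those of the levels were 0.72 and 0.33. Much of the difference of the shares came with U9-KO female 1, without which it was -1.04 and -1.32, and without U9-KO female 3 it was -2.08 and -2.49. As shares of all antibody genes, constant regions included, the differences were -1.10 and -1.49. The difference of the shares was not tested. The denominators were higher in the U9-KO females of this set, a difference that was not tested. All heavy segments together had 223 to 784 normalized counts in WT and 1134 to 6367 in U9-KO females, and all light segments 368 to 1345 and 1604 to 9937. U9-KO female 1 shows the extreme, with 5807 heavy chain counts led by *Ighv1-42* (2958) and only 19 of *Ighv11-2*. Set against the summed B cell marker genes instead, the log2 differences in females were 0.63 for *Ighv11-2* and 0.24 for *Igkv14-126*, so their direction depends on what the segment is compared with.

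**Figure D2:**
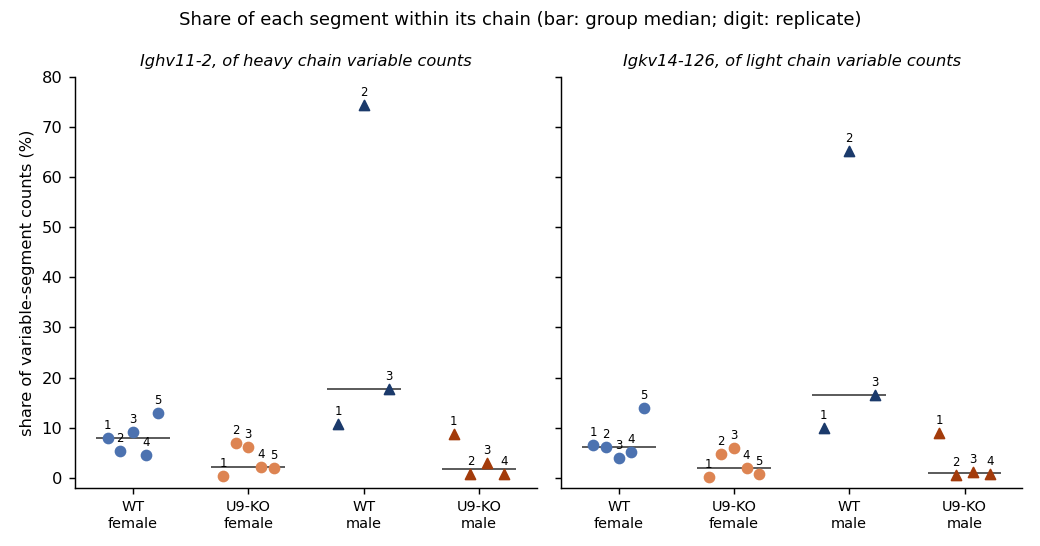
Share of *Ighv11-2* among heavy chain variable counts and of *Igkv14-126* among light chain variable counts (%) in each mouse, with 1 point per mouse, its replicate number and a bar at the group median. WT male 2 lies at 74.4% and 65.3%, and the other mice at 17.6% or less.

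Shares of the second pair were small in most mice. *Ighv12-3* reached at most 1.66% of heavy chain counts, in WT male 1, and its 0 in WT female 3 allows a share of up to 0.548%, the share of 3 reads at the estimated depth. *Igkv4-91* had 3.75%, 0.928% and 5.52% of light chain counts in WT males and 3.10%, 14.3%, 0.303% and 0.725% in U9-KO males. In U9-KO male 2 it was first of the 103 light segments (95% Wilson interval 12.7% to 16%), while *Ighv12-3* was in place 25 of 113 there and the leading heavy segment was *Ighv6-6* with 105 counts. In females *Igkv4-91* lay between 0.169% and 1.63%.

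The heavy and light segments of the first pair moved together across mice. Over the 10 females, Pearson's r of log2(normalized count + 1) between *Ighv11-2* and *Igkv14-126* was 0.945 (permutation test with 100000 resamples, two-sided p = 0.0002, adjusted over 4 relations p = 0.0008) and Spearman's rho was 0.939 (permutation p = 0.00018, adjusted p = 0.00072). Without the 2 females farthest from the median of *Ighv11-2*, U9-KO females 2 and 3, r was 0.842 in the remaining 8. Among 78 light segments that passed the filter in females, *Igkv14-126* was the one most like *Ighv11-2*, followed by *Igkv8-24* at 0.808, and the median r over the 78 was 0.36. With shares in place of levels r was 0.953. The heavy and light chain sums were high in the same mice, as in U9-KO female 1 with 5807 and 9937. Dividing by them can therefore itself make 2 shares alike, and this r is no separate evidence of likeness. With shares the crossed relations gave 0.654 for *Ighv11-2* with *Igkv4-91* and 0.349 for *Ighv12-3* with *Igkv14-126*, and the second pair 0.285. Leaving out each female in turn gave r between 0.878, without U9-KO female 3, and 0.964. With 5 mice per genotype, no r within a genotype is given.

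The second pair was not shown to move together. Between *Ighv12-3* and *Igkv4-91*, r was 0.634 (permutation test, p = 0.0801, adjusted p = 0.107) and rho 0.434 (permutation p = 0.211, adjusted p = 0.388), and without the 2 females farthest from the median of *Ighv12-3*, U9-KO female 3 and WT female 3, r was 0.30. Without U9-KO female 3 alone r was 0.13. *Igkv4-91* was in place 20 of the 78 light segments by likeness to *Ighv12-3*. The crossed relations gave r = 0.709 for *Ighv11-2* with *Igkv4-91* (permutation p = 0.0476, adjusted p = 0.0952, rho 0.371, permutation p = 0.291, adjusted p = 0.388) and r = 0.490 for *Ighv12-3* with *Igkv14-126* (permutation p = 0.177, adjusted p = 0.177, rho 0.0753, permutation p = 0.844, adjusted p = 0.844). Without U9-KO female 3 alone r was 0.28 and -0.10, and without the 2 females farthest from the median of the heavy segment it was -0.11 and -0.16. The difference between the partner and crossed values was not tested.

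**Figure D3:**
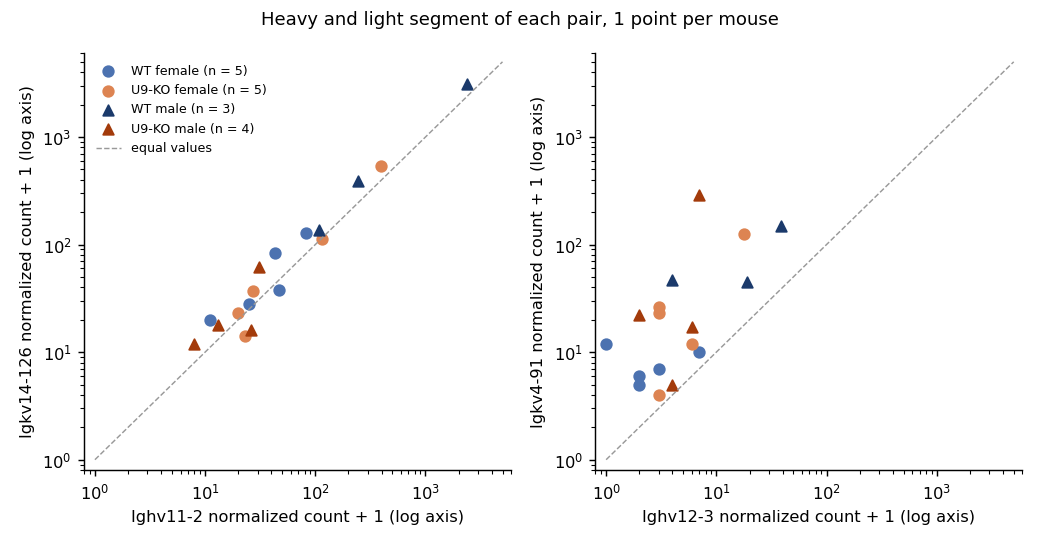
Normalized count + 1 of the light segment against that of the heavy segment (log axes) for the first pair on the left and the second on the right, with 1 point per mouse and a dashed line at equal values. All 17 mice of the first pair lie within a 0.591 to 2.03 light to heavy ratio, whereas the second pair is scattered, with U9-KO male 2 far above the line.

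The amounts of the partners were also similar in the first pair. The ratio of *Igkv14-126* to *Ighv11-2* normalized counts was 1.35 in the median mouse and ran from 0.591 to 2.03, over levels that differed from 7 to 2397 for the heavy segment, and the light segment was higher in 13 of 17 mice. Per length of transcript the median ratio was 1.73 and the range 0.761 to 2.62. In WT male 2 the values were 2397 and 3096, and in U9-KO male 2 they were 7 and 11. For *Igkv4-91* to *Ighv12-3*, in the 16 mice with *Ighv12-3* above 0, the median ratio was 3.95 (range 1.33 to 47.8) and per length 3.89 (range 1.31 to 47.2), and the light segment was higher in 16 of 16. The SD of the log2 ratio per length was 0.53 for the first pair and 1.51 for the second.

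Relatives of the members show how far each one stood out in its family. *Ighv11-2* summed to 3601 normalized counts over the 17 mice against 33 for *Ighv11-1*, the only other segment of its family. WT male 2 alone gave 2397 of the 3601, and the 10 females together 779 against 10. *Igkv14-126* summed to 4736, ahead of *Igkv14-111* (481, highest in U9-KO female 1 at 283) and *Igkv14-130* (71, of which 67 in U9-KO female 3). WT male 2 gave 3096 of the 4736, the 10 females had 1006 against 358 for *Igkv14-111*, and in U9-KO female 1 the order was turned, with 22 against 283. The sums over all mice include the male values that chose this pair. *Ighv12-3* summed to 112, and the other 2 segments of its family, both listed as pseudogenes, were at 0 in every mouse. *Igkv4-91* summed to 786 and was the highest of the 26 functional segments of the large *Igkv4* family, followed by *Igkv4-55* (349) and *Igkv4-53* (310). In the females alone *Igkv4-53*, at 237, was ahead of *Igkv4-91* at 220, and 210 of its counts were in U9-KO female 4.

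For each member, the 3 genes with the most similar pattern over the 10 females were taken among genes with a mean of at least 10, which is a description, since 17763 genes were compared over 10 mice. For *Ighv11-2* they were *Stambp* (r = 0.957), *Igkv14-126* (0.945) and *Eif4ebp2* (0.945). For *Igkv14-126* they were *Copg2* (0.953), *Epb41l1* (0.947) and *Ighv11-2* (0.945). Each member of the first pair thus had the other in its first 3. In the second pair, *Sdhaf1* (0.943), *Hdhd2* (0.931) and *Glt28d2* (0.916) were nearest to *Ighv12-3*, so *Igkv4-91* was not in its first 3. Nearest to *Igkv4-91* were *Slc35a3* (0.964), *Zfp715* (0.950) and *Fastkd2* (0.949). *Ighv12-3* could not appear there, since its 38 normalized counts over the 10 females put its mean below the minimum.

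Another recurrent natural antibody, the T15 kind against phosphorylcholine, pairs *Ighv7-1* with *Igkv7-33*. *Ighv7-1* had 234 normalized counts and *Igkv7-33* 342 in U9-KO female 3, and in the other females they were at most 9 and 2. In males *Ighv7-1* had 104, 101 and 7 in WT and 0, 13, 0 and 2 in U9-KO mice, while *Igkv7-33* was at 0 in all 7. U9-KO female 3 was thus the highest female for the phosphatidylcholine and for the phosphorylcholine segments alike.

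The constant regions show the class of the antibody RNA beside the members. *Ighm*, the heavy chain of IgM, had 10615 to 22352 normalized counts in WT and 13359 to 26058 in U9-KO males, and 1098 to 10357 in WT and 2869 to 18193 in U9-KO females. *Ighd*, of IgD, was at 35 to 227 in all mice, and *Igha*, of IgA, at 34 to 1451. The IgG genes *Ighg1*, *Ighg2b*, *Ighg2c* and *Ighg3* were highest in U9-KO females, at up to 297, 2562, 5449 and 2838, and *Ighe*, of IgE, was at 0 or 1. *Igkc*, the kappa constant region, had 1021 to 5786 in WT and 777 to 2372 in U9-KO males, and 356 to 1297 in WT and 1859 to 9490 in U9-KO females. The lambda regions *Iglc1*, *Iglc2* and *Iglc3* did not exceed 472, 458 and 118. *Jchain*, which joins the units of IgM and IgA, had 301 to 1575 in WT and 214 to 893 in U9-KO males. In females *Jchain* had 113 to 341 in WT and 576 to 3471 in U9-KO mice. In WT male 2, with the most *Ighv11-2*, *Ighm* was 17275 and *Igkc* 5786, and in U9-KO male 4, with the most *Ighm* (26058), *Ighv11-2* was 12. A high IgM count thus stood beside low as well as high counts of the first pair.

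**Figure D4:**
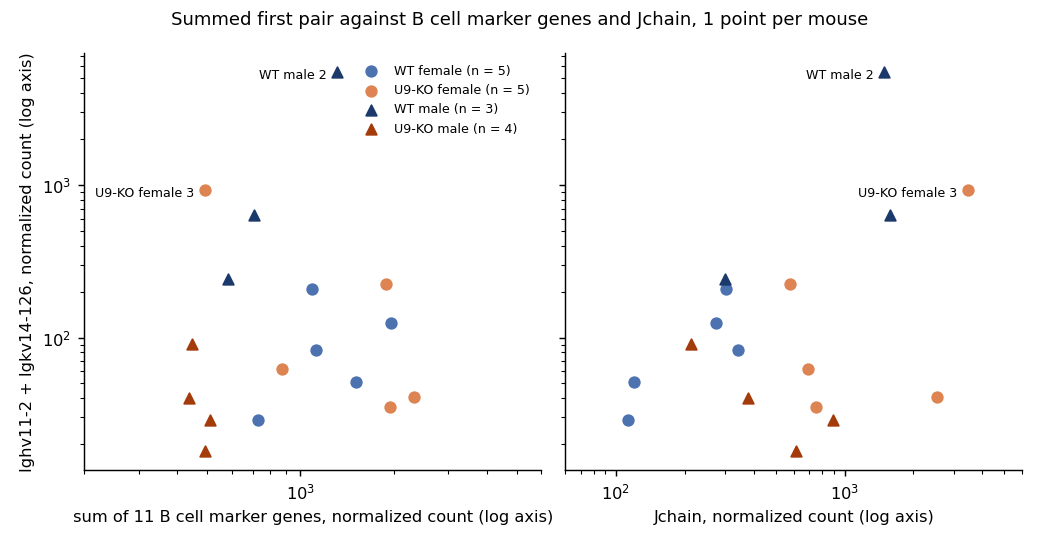
Summed normalized count of *Ighv11-2* and *Igkv14-126* against the summed B cell marker genes on the left and *Jchain* on the right (log axes), with 1 point per mouse. U9-KO female 3 combines 927 counts of the pair with the lowest B cell marker sum of the females, and WT male 2 has 5493 counts of the pair at a *Jchain* count of 1491.

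Several marker lists also differed between the male groups, and no test was run on them. In males 10 of 11 B cell genes, 7 of 7 B-1 genes, 3 of 3 follicular B cell genes and 7 of 7 T cell genes had lower mean log2 values in U9-KO mice, with median log2 differences of -0.92, -0.41, -0.57 and -0.95, beside 0.00 over all genes. For 11 plasma cell genes the median was -0.25, with 8 lower. The heavy segments had a median of -1.0 (50 of 69 lower) and the light segments -1.20 (52 of 69 lower), against -4.55 and -4.68 for the first pair. Without WT male 2, the medians were -0.48 for B cell, -0.30 for B-1 and -0.29 for follicular B cell genes. Those of plasma cell and T cell genes were then -0.15 and -0.99. Heavy and light segments had medians of -1.18 and -1.31 without that mouse, against -3.25 and -3.44 for the first pair. B cell marker sums in males, 437 to 509 in U9-KO against 582 to 1315 in WT mice, did not overlap. Fewer B cells, less RNA per cell and a lower use of these segments cannot be told apart in the levels, and the part of B cell content in the result was not tested. The shares within each chain, given above, were also lower in U9-KO males. They come from the same male counts that chose the pair, so they are no separate support.
In females 0 genes of any list passed the test, beside 0% of all genes. The median log2 differences were 0.07 for B cell genes (8 of 11 higher in U9-KO), 0.21 for B-1 genes (5 of 7), 0.36 for follicular B cell genes (3 of 3), 0.40 for plasma cell genes (8 of 11) and 0.24 for T cell genes (5 of 7). Heavy segments had a median of 1.20 (72 of 83 higher) and light segments 1.42 (67 of 78 higher). The differences of *Ighv11-2* and *Ighv12-3*, 0.72 and 1.02, were below the heavy segment median, that of *Igkv14-126*, 0.33, was below the light segment median and that of *Igkv4-91*, 1.43, was close to it. Without U9-KO female 3 the medians were 0.47 for B cell, 0.33 for B-1, 0.73 for follicular B cell, 0.53 for plasma cell and 0.36 for T cell genes, 0.95 for heavy and 1.05 for light segments, and again 0 genes of these lists passed the test.
Other tissues in the fat pad were followed through their own lists. In males and females the medians were -0.02 and -0.02 for lymph node stroma genes, 0.00 and -0.13 for mesothelium, 0.10 and 0.09 for adipocytes, -0.39 and 0.37 for blood and 0.17 and -0.63 for ovary and oviduct. The ovary and oviduct genes summed to 3558 to 119882 in WT and 4643 to 130667 in U9-KO females. In males they summed to 201 to 273 in WT and 175 to 392 in U9-KO mice. Female libraries thus differed widely in RNA of these genes, and its part in the female values was not tested. Of 5 epididymis genes 4 were measured, with sums of at most 3 in males, and 1 was tested in females (0.77). *Glycam1*, the defining gene of lymph node vessels, was at 0 in every WT mouse and at 0 to 4 normalized counts in U9-KO females and 0 to 2 in U9-KO males. The sum of the lymph node stroma genes was 940 to 3721 in WT and 933 to 1612 in U9-KO males. The highest of these, 3721, was in WT male 2, of which *Cxcl13*, a chemokine that attracts B cells, made up 2157. Its part in the level of the first pair in that mouse was not tested.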

How the data were processed

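RNA from pWAT of 17 mice, 1 library each, was extracted with RNeasy columns and Trizol, selected by oligo(dT) and sequenced as paired-end stranded libraries. The authors trimmed reads with trim_galore, aligned them with STAR 2.7.3a to GRCm38, assigned them to genes by summarizeOverlaps (Union mode) and scaled them with DESeq2 1.28.1 (tool versions and build from the submitters' processing notes). What the authors deposited is a score for each gene, the read count over a size factor, rounded to a whole number. Union mode drops reads that overlap several genes, which can remove reads across a variable and a joining segment or across near-identical copies, so counts of variable segments can be too low. A whole-series table repeated the 17 single libraries and was not used. In 2 male libraries the replicate number in the column header differs from the label, which was followed. Replicates are separate mice.

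Of 55401 gene identifiers, 55141 were named with GENCODE M21. Size factors of 0.757 to 1.23 were estimated from the whole numbers that rounding skips or repeats, a step chosen after seeing the data and tested on simulated data. The list medians without U9-KO female 3 and the sums of relatives over the females alone were also chosen after seeing the data. Counts and shares limit precision to counting error at best.

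limma 3.58.1 in R 4.3.3 (lmFit, eBayes with trend) was fitted to log2(value + 1) of genes with a total of at least 10, in females, with Benjamini-Hochberg adjustment over all genes and a threshold of 0.05. The same scale gave the male differences, with no test. Pairing was tested over 10 females in Python 3.11.15 with scipy 1.17.1 (100000 resamples, exact enumeration with 1 mouse left out). Shares have approximate 95% Wilson intervals and a floor of 3 reads. The fits were tested on simulated data. Alternatives were the filter, the pseudocount, the trend, the replicate block, all 17 mice in 1 fit, TMM scaling, other denominators and each mouse left out.

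The members, the lists of marker genes (B cells, B-1 cells, follicular B cells, plasma cells, T cells, lymph node stroma, mesothelium, adipocytes, blood, ovary and oviduct, epididymis) and the rule for named genes were chosen with earlier results of these data known. The rule took the members in every mouse, the 3 genes most like each over the females (mean of at least 10), the place of the light partner, the 2 highest relatives in each family, *Ighv7-1* and *Igkv7-33*, the antibody constant regions and *Jchain*. Genes named as the leading segment of a mouse, *Cxcl13* and the closest segments by sequence were chosen after their values were seen.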

Additional observations from a re-analysis of the deposited data

Results flagged for a closer look

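Normalized counts and shares of the 4 segments were examined in 24 groups of 4 or 5 mice for a mouse far from the others (a gap above Dixon's 95% value), and 8 held one, where chance flags about 1 in 20. The groups share mice and partner segments, so the 8 are not independent. That rate also assumes normally distributed values, and 6 of the 8 were on normalized counts without a log scale. No excess over chance is therefore read from them. The 3 WT males were too few to be examined, so WT male 2 could not be flagged. U9-KO female 3 accounted for 4 of them, with 395 normalized counts of *Ighv11-2* (the remaining U9-KO females had 19 to 113), 532 of *Igkv14-126* (13 to 111), 17 of *Ighv12-3* (2 to 5) and 124 of *Igkv4-91* (3 to 25). In the same mouse the B cell marker genes summed to 493 and *Jchain* was 3471, and their part in these values was not tested. None of its shares of the 4 segments stood apart in this way.

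U9-KO male 2 had 287 normalized counts of *Igkv4-91*, where the remaining 3 had 4 to 21. U9-KO male 1 had 61 of *Igkv14-126* (11 to 17 in the others) and 9.01% of light chain counts (0.547% to 1.14%). *Igkv14-126* was 13.9% of light chain counts in WT female 5, against 3.90% to 6.52% in the other WT females. No segment moved one way in all females and the opposite way in all males.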

How the results depend on the processing

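Of 69 values recomputed with another setting and all mice, 63 were counted as unchanged. For tested values this meant the same direction and call, and for the number of genes called an equal number. Shares and male differences have no call, and for them it meant the same direction and a move below the pooled SD. That SD is wide, at 0.60 to 1.99 on the log2 scale for the shares. Without the mean-variance trend, 1 gene in place of 0 passed in females, and it was no member. With the summed B cell marker genes as denominator, the log2 differences of the shares in females turned to 0.63 (*Ighv11-2*), 0.24 (*Igkv14-126*), 0.93 (*Ighv12-3*) and 1.34 (*Igkv4-91*). With all antibody genes as denominator, that of *Ighv12-3* in males was -1.58 in place of -0.80. The replicate numbers did not pair the mice, as same-numbered females deviated with correlations of -0.445 to 0.11 and none was most like its own number. With the replicate block 0 genes passed. The members' differences of 0.72, 0.33, 1.02 and 1.43 cannot change with this block, since each number holds 1 female of each genotype. Nor can the filter, the trend or the fit of all 17 mice change these differences. Under those settings only the call could move, so their count as unchanged says little. With at least 10 in every mouse, *Ighv12-3* and *Igkv4-91* dropped out and gave no value. Leaving out 1 mouse, the difference of *Igkv14-126* in females ran from -0.46 to 0.85, that of the share of *Igkv4-91* in males from -1.47 to 0.28, and r from 0.28 to 0.81 for *Ighv11-2* with *Igkv4-91* and from -0.10 to 0.67 for *Ighv12-3* with *Igkv14-126*. The crossed relation of *Ighv11-2* with *Igkv4-91* passed without U9-KO female 1 (adjusted p = 0.0447 by exact permutation test, range over the 10 0.0447 to 0.796). The first pair's r stayed past the threshold without any 1 female (0.878 to 0.964, exact permutation adjusted p 0.000485 to 0.0112). The causes were not tested. Depth limits *Ighv12-3* most, at 17 or fewer normalized counts in females.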

Other observations

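Antibodies against phosphatidylcholine with *Ighv11-2* or *Ighv12-3* are known for joining to the first heavy chain J segment, *Ighj1*, and its values were looked at after the members' values were seen. *Ighj1* had 80 normalized counts in WT male 2, the mouse with the most *Ighv11-2*, and 46 in U9-KO female 3, the next highest, against 3 to 32 in the other 15 mice. *Ighj2*, *Ighj3* and *Ighj4* had up to 28, 22 and 57 counts. J segments are short and reads that span a J and another gene are dropped by the counting, so these values hold little of the J segment use, and no test was run.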
